A study of Mus musculus with 8 samples.

Results

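The nuclear and mitochondrial genes for subunits of the respiratory chain were examined in CD4+ T cells of neonatal mouse liver. Members were chosen by name, as gene symbols that begin with Nduf and a subunit letter, Sdha to Sdhd, Uqcr, Cox4 to Cox8, Atp5, or the mitochondrial mt-Nd, mt-Co, mt-Cytb and mt-Atp, without pseudogenes. Of 96 such symbols, 83 had at least 50 counts summed over the 8 libraries and form the set, out of 52997 symbols in the table. The set holds 75 nuclear genes and 8 mitochondrially encoded genes, and all 83 were among the 11490 genes with enough counts to be tested. By the position of their products the nuclear members comprise 7 core and 28 accessory subunits of complex I, 4 of complex II, 8 of complex III, 12 of complex IV (Ndufa4 included) and 16 of complex V.

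The cells came from livers of C57BL/6 mice that lack Aire and carry a GFP reporter of Foxp3, aged 10 or 5 days. They were sorted as live CD45+ TCRb+ CD4+ cells without GFP and separated by surface PD-1, the inhibitory receptor that activated T cells display. PD-1+ and PD-1- cells of 10-day mice and PD-1+ and PD-1- cells of 5-day mice made 4 groups of 2 libraries, each library from about 1000 sorted cells. Aire was deficient in all groups and no Aire-sufficient mice were analysed here. The labels do not name the animal behind a library. At 5 days the libraries of each group differ in sex and so stem from different animals. At 10 days the spread between libraries may be only technical. The p-values rest on a spread shared by all 8 libraries, so they may in part measure technical spread.

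Oxidative phosphorylation passes electrons from NADH through complex I, or from succinate through complex II, to ubiquinone, then through complex III, cytochrome c and complex IV to oxygen, while complexes I, III and IV pump protons that drive ATP synthesis by complex V. Nuclear genes encode all of complex II and most subunits of the other complexes, whereas mitochondrial DNA encodes a small hydrophobic core of complexes I, III, IV and V, and the mitochondrion transcribes it with its own polymerase. Activated T cells are known to enlarge their mitochondrial mass and respiratory capacity as they leave quiescence.

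Library totals lay between 2215852 and 2843311 counts in PD-1+ cells and between 1473216 and 3019551 in PD-1- cells. All 8 genes of the CD4 T cell list, Cd4 among them, were detected in every library. Levels are given in counts per 1000000 counts of the tested genes after TMM scaling (CPM). Summed levels of 10 hepatocyte markers were 29.1 to 79.3 CPM in PD-1+ and 12.5 to 22.4 CPM in PD-1- libraries. Of the 10, 2 to 3 were at 0 in PD-1+ and 3 to 6 in PD-1- libraries. Alb had 24 to 119 counts in PD-1+ and 0 to 16 in PD-1- libraries. Afp made up most of the sum in PD-1- libraries. It went the other way at 10 days, with 8.19 and 5.27 CPM in PD-1+ and 12.31 and 13.01 CPM in PD-1- libraries. At 5 days the Afp levels of the populations overlapped. Summed levels of 5 B cell markers, mostly from Ighm, were 289 to 351 CPM in PD-1+ and 543 to 636 CPM in PD-1- libraries. The 2 CD8 genes summed to 6.18 to 27.4 CPM in PD-1+ and 27.5 to 47.6 CPM in PD-1- libraries, where Cd8b1 made up most of the sum. Cd8a went the other way at 10 days, with 14.2 and 5.27 CPM in PD-1+ and 4.21 and 1.95 CPM in PD-1- libraries. At 5 days the Cd8a levels of the populations overlapped. The 8 erythroid markers summed to 2.81 to 5.34 CPM in PD-1+ and 11.1 to 29.8 CPM in PD-1- libraries, where Gata1 was the highest of them. The 8 macrophage and Kupffer cell markers summed to 29.9 to 50.2 CPM in PD-1+ and 27.5 to 54.5 CPM in PD-1- libraries, ranges that overlap. At 10 days 0 to 1 of the 8 was at 0 in PD-1+ libraries and 6 were at 0 in both PD-1- libraries, where Cd68 made up most of the sum. At 5 days 0 were at 0 in PD-1+ and 0 to 2 in PD-1- libraries. Clec4f, a Kupffer cell gene, had 11 and 13 counts in 10-day PD-1+ libraries and 0 in both 10-day PD-1- libraries. Summed levels of 5 neutrophil markers were 1.42 to 3.82 CPM in PD-1+ and 1.14 to 2.59 CPM in PD-1- libraries. Actb alone took 2.90 to 5.33% of the counts in PD-1+ and 1.24 to 1.57% in PD-1- libraries. The part of these differences in the results was not tested. Both 5-day libraries numbered 3 were from males, with 601 and 672 counts of Y-linked genes in PD-1+ and PD-1- cells, and the other 6 libraries had none.

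The reads were 25 bases long, and the nuclear genome holds copies of mitochondrial DNA from which such short reads may not be told apart. Of the 13 mitochondrially encoded subunits, 8 reached the count limit, while mt-Co3 had 3 counts in all libraries together, mt-Co2 had 2 and mt-Atp6, mt-Atp8 and mt-Nd4l had 0. A total of 0 in 19247927 counts allows up to 3 counts, or a level of 0.156 per 1000000 counts, for counting error alone. Of the stretches of 25 bases in mt-Co2, 100% also occur in another annotated gene, and the share was 99.9% in mt-Co3, 99.5% in mt-Atp6, 98.9% in mt-Nd4l and 98.2% in mt-Nd3. It was 69.7% in mt-Co1, 62.9% in mt-Nd4, 21.3% in mt-Nd5, 18.2% in mt-Nd2, 14.95% in mt-Nd6, 13.04% in mt-Cytb and 0% in mt-Nd1. mt-Atp8, at 11.7%, was listed at 0 although most of it is not shared with another annotated gene. It lies between mt-Co2 and mt-Atp6 and overlaps the latter. The copies of these neighbours lie at chr1:24614885-24615565 and chr1:24613974-24614651. The stretch between these copies, like all sequence outside annotated genes, was not searched. The copy of mt-Co2 is Gm28661 on chromosome 1, and over all 681 bases of the copy both sequences are identical. The first 60 bases are shown because a read of 25 bases within them matches both genes. They are from mt-Co2 at chrM:7013-7072 on the plus strand and from Gm28661 at chr1:24615506-24615565 on the minus strand (GENCODE M21 transcripts, GRCm38).
mt-Co2: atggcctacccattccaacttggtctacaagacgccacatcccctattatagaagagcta
Gm28661: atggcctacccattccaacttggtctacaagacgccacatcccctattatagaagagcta

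mt-Co1 also has a copy over its full 1545 bases, Gm13340 on chromosome 2, but that copy differs at 37 bases and is 97.6% identical. The first 60 bases are shown as the contrast, from mt-Co1 at chrM:5328-5387 on the plus strand and from Gm13340 at chr2:22589588-22589647 on the minus strand, with capitals at the 2 bases that differ.
mt-Co1: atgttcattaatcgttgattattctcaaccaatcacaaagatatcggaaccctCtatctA
Gm13340: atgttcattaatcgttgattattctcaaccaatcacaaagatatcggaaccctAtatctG

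mt-Co1 had 154499 counts in all libraries together and Gm13340 had 275, whereas Gm28661 had 1. The chromosome 1 copies of mt-Co3 (Gm28437), mt-Atp6 (Gm10925) and mt-Nd4 (Gm28439) had 7, 6 and 1 counts. How reads with several equal places were counted is not given in the sources used here. Levels of mt-Nd3, mt-Nd4 and mt-Co1 may therefore rest on only a part of each gene, which was not tested. The 5 genes with 0 to 3 counts are not read as low expression.

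**Figure D1:**
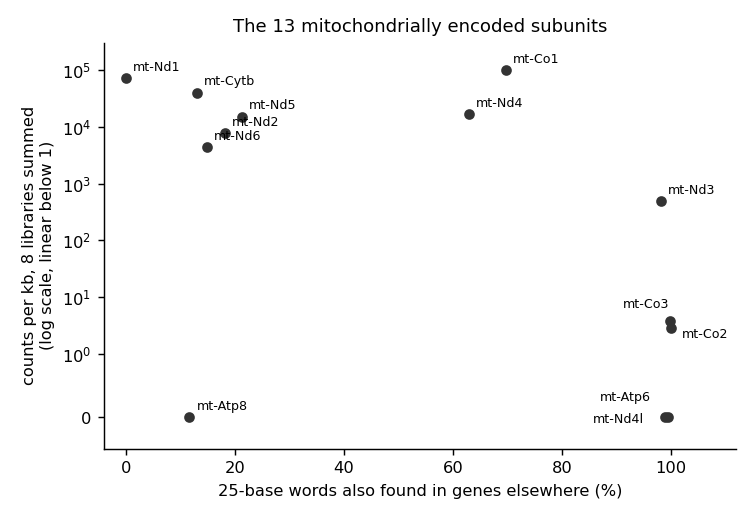
Counts per kb summed over the 8 libraries (vertical axis, logarithmic above 1 and linear below) against the share of 25-base words of each mitochondrially encoded subunit that also occur in a gene elsewhere (horizontal axis, %), with 1 point per gene. The genes above 98% sit at the bottom right except mt-Nd3, which had 170 counts, and mt-Atp8 is listed at 0 at 11.7%.

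Summed over each genome, the nuclear and mitochondrial members differed in opposite directions between the populations in their means. The 75 nuclear members summed to 10553 and 10422 CPM in 10-day PD-1+ cells, against 8384 and 8924 CPM in 10-day PD-1- cells. At 5 days they summed to 17336 and 16286 CPM in PD-1+ cells, against 10030 and 11154 CPM in PD-1- cells. At each age both PD-1+ libraries were above both PD-1- libraries, and across ages the highest PD-1- library (5 days) lay above the 10-day PD-1+ libraries. The 8 mitochondrial members summed to 12388 and 11766 CPM in 10-day PD-1+ cells, against 16612 and 18820 CPM in 10-day PD-1- cells, and here the groups did not overlap. At 5 days they summed to 19215 and 19750 CPM in PD-1+ cells, against 18008 and 25712 CPM in PD-1- cells, which overlap. In the bulk libraries, fewer cells with a transcript and less of it per cell cannot be told apart.

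The ratio of nuclear to mitochondrial counts needs no scaling between libraries. It was 0.852 and 0.886 in 10-day PD-1+ cells, against 0.505 and 0.474 in 10-day PD-1- cells. At 5 days it was 0.902 and 0.825 in PD-1+ cells, against 0.557 and 0.434 in PD-1- cells. The mean ratio was 0.866 ± 0.0347 in PD-1+ and 0.492 ± 0.0519 in PD-1- cells (SD, n = 4 each), a 1.76-fold difference, and the lowest PD-1+ library was above the highest PD-1- library. The difference was 1.78-fold at 10 days alone and 1.74-fold at 5 days alone. It was 1.87-fold with mt-Co1 left out, 1.71-fold with Atp5a1 and Atp5b left out, and 1.72-fold without the male 5-day libraries.

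**Figure D2:**
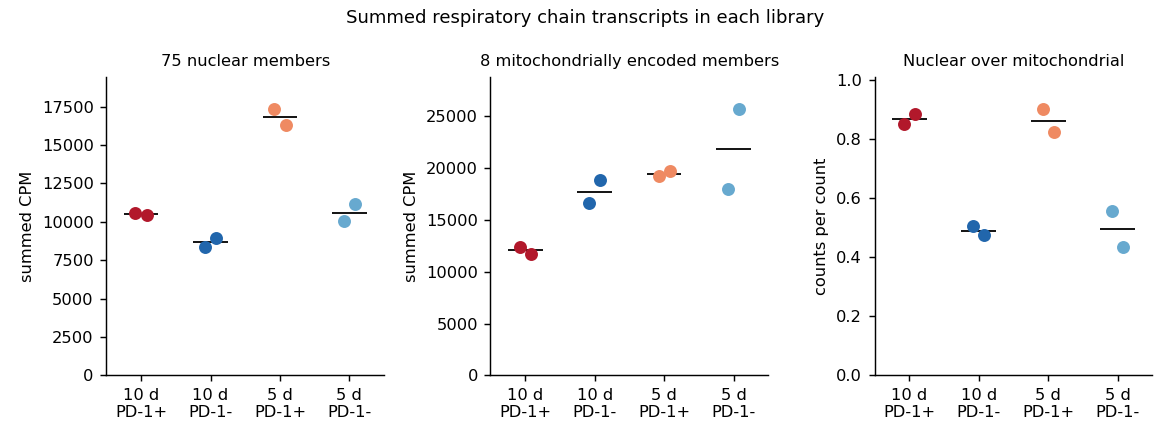
Summed CPM of the 75 nuclear members (left), summed CPM of the 8 mitochondrially encoded members (middle) and nuclear counts per mitochondrial count (right) in each group, with 1 point per library and a line at the mean. In the right panel the 4 PD-1+ libraries lie at 0.825 to 0.902 and the 4 PD-1- libraries at 0.434 to 0.557.

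Gene by gene, PD-1+ cells were compared with PD-1- cells over both ages with a model that holds age constant, and a gene was called at an adjusted p below 0.05. Of the 83 members, 39 were higher in PD-1+ cells, 8 were lower and 36 were not called, where 21.9% of all tested genes were higher and 19.6% were lower. Among the nuclear members 39 of 75 were higher and 3 were lower, with a median log2 fold change of 0.49, against -0.01 over all tested genes. None of the 8 mitochondrial members was higher and 5 were lower, with a median of -0.53. Every PD-1+ library was above every PD-1- library for 12 members, where this held for 17.2% of all tested genes, and below for 4 members, where it held for 17.5%. With library totals in place of scaling factors, 26 members were higher and 9 lower while the median of all tested genes was -0.17. The nuclear median was then 0.33 and the mitochondrial median -0.69, so both kept their directions. Among all called genes 52.8% were higher with the scaling used and 40.7% with library totals.

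**Figure D3:**
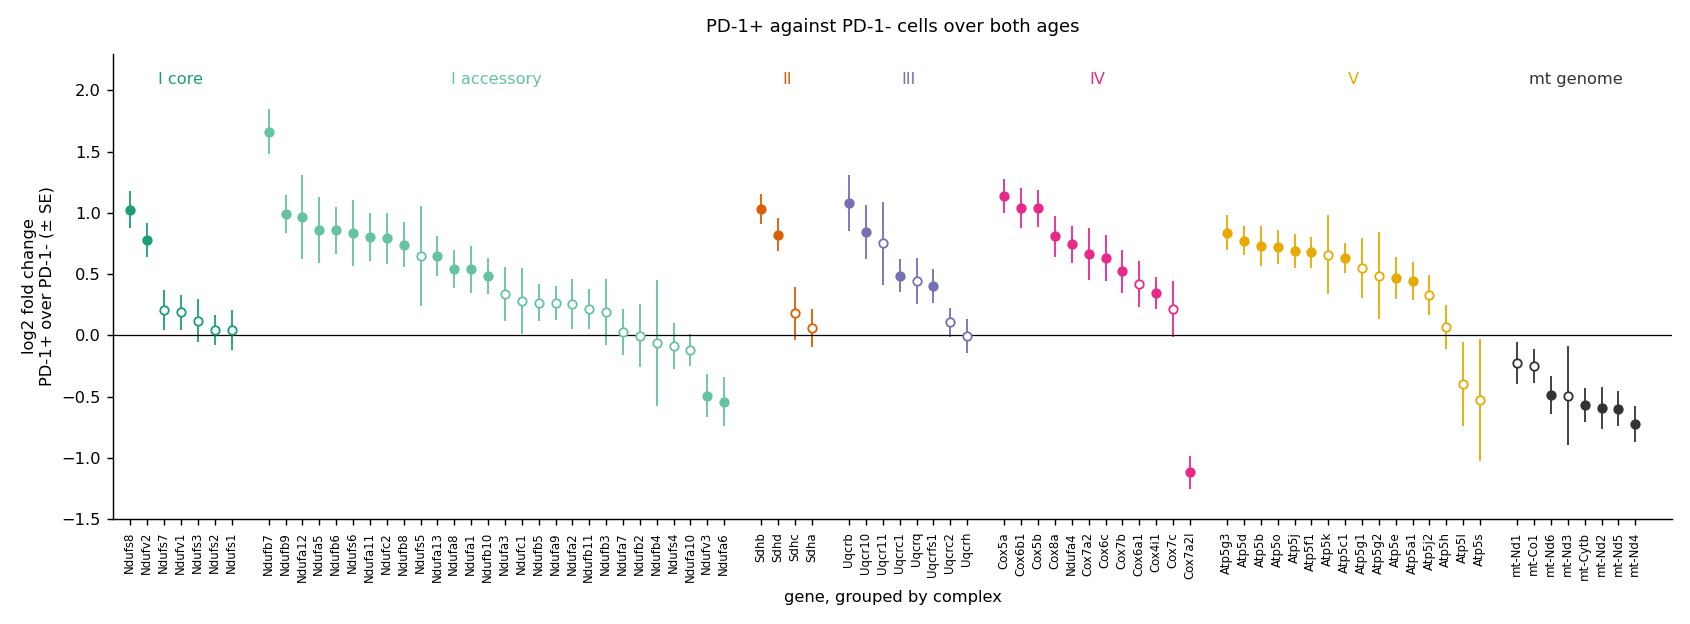
Log2 fold change of PD-1+ over PD-1- cells over both ages for each of the 83 members, with its standard error as a bar, ordered within each class. Filled points were called at an adjusted p below 0.05 and open points were not. Cox7a2l stands below the other nuclear members at -1.12, and all 8 mitochondrially encoded genes lie below 0.

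Complex I oxidises NADH, and 15 of its 35 nuclear subunits were higher in PD-1+ cells and 2 lower. Of the 7 core subunits, 2 were higher and none was lower. Ndufs8, an iron-sulfur subunit on the path to ubiquinone, had 108 and 93.1 CPM in 10-day PD-1+ cells, against 49.9 and 63.1 CPM in 10-day PD-1- cells. At 5 days it had 196 and 174 CPM in PD-1+ cells, against 75.2 and 85.7 CPM in PD-1- cells. The PD-1+ libraries were above the PD-1- libraries at both ages without overlap, with a log2 fold change of 1.03 ± 0.15 (adjusted p = 9.0e-05, edgeR). Ndufv2, an iron-sulfur subunit of the NADH-oxidising module, was also higher (0.78 ± 0.14, adjusted p = 0.00038, edgeR). The other 5 core subunits had log2 fold changes of 0.04 to 0.21 and were not called. Ndufv1, which binds NADH, was at 0.19 ± 0.14 (adjusted p = 0.31, edgeR). Ndufs1, the large iron-sulfur subunit of the same module, was at 0.04 ± 0.16 (adjusted p = 0.86, edgeR), with 119 and 138 CPM in 10-day PD-1+ cells, against 177 and 149 CPM in 10-day PD-1- cells. At 5 days Ndufs1 had 207 and 202 CPM in PD-1+ cells, against 163 and 139 CPM in PD-1- cells, so the groups took opposite orders at the 2 ages.

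Of the 28 accessory subunits of complex I, 13 were higher, 2 were lower and 13 were not called. Ndufb7 (chr8:83566671-83571626, plus strand, GRCm38), an accessory subunit on the intermembrane-space face of the membrane arm, had the largest log2 fold change of the set. It had 61.3 and 61.5 CPM in 10-day PD-1+ cells, against 18.8 and 24.7 CPM in 10-day PD-1- cells. In 5-day cells its level was 151.3 and 123 CPM in PD-1+ cells, against 33.4 and 46.6 CPM in PD-1- cells. The groups did not overlap, and the level was 3.17-fold higher in PD-1+ cells (log2 fold change 1.66 ± 0.19, adjusted p = 5.6e-06, edgeR). Ndufb9, another membrane-arm subunit, followed at 0.99 ± 0.15 (adjusted p = 0.00014, edgeR), and Ndufb6 at 0.86 ± 0.19 (adjusted p = 0.0026, edgeR); 39.0% of the exon length of Ndufb6 is overlapped by Smim27. Ndufb2 was not called (log2 fold change -0.00 ± 0.26, with overlapping groups at both ages).

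The lower accessory subunits were Ndufa6 and Ndufv3, and both calls were narrow. Ndufa6, a subunit that holds the acyl carrier protein at the junction of the arms, had 54.5 and 52.7 CPM in 10-day PD-1+ cells, against 54.4 and 97.6 CPM in 10-day PD-1- cells. The 5-day levels were 63.8 and 64.9 CPM in PD-1+ cells, against 78.4 and 118 CPM in PD-1- cells. The PD-1- libraries of each age differed widely and the groups overlapped at 10 days, for a log2 fold change of -0.54 ± 0.20 (adjusted p = 0.040, edgeR). It was not called by DESeq2 (adjusted p = 0.064), and leaving out single libraries gave adjusted p of 0.00998 to 0.18 (edgeR), the highest without 10-day PD-1- replicate 2. Ndufv3, a small subunit of the NADH-oxidising module, had a log2 fold change of -0.49 ± 0.18 (adjusted p = 0.036, edgeR), and DESeq2 did not call it (adjusted p = 0.073); leaving out single libraries gave 0.018 to 0.13 (edgeR).

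Complex II, which also belongs to the tricarboxylic acid cycle, split by subunit. Sdhb (chr4:140961203-140979193, plus strand), its iron-sulfur subunit, had 261 and 265 CPM in 10-day PD-1+ cells, against 127 and 141 CPM in 10-day PD-1- cells. For 5-day cells the values were 417 and 397 CPM in PD-1+ cells, against 174 and 211 CPM in PD-1- cells. PD-1+ libraries were higher without overlap, at a log2 fold change of 1.03 ± 0.12 (adjusted p = 1.3e-05, edgeR). Sdhd, a membrane anchor, was higher at 0.82 ± 0.13 (adjusted p = 0.00016, edgeR). Sdha, the flavoprotein that oxidises succinate, had 417 and 522 CPM in 10-day PD-1+ cells, against 580 and 582 CPM in 10-day PD-1- cells. At 5 days Sdha had 604 and 645 CPM in PD-1+ cells, against 478 and 446 CPM in PD-1- cells. The order of the groups was thus opposite at the 2 ages, and over both ages Sdha was at 0.06 ± 0.16 (adjusted p = 0.78, edgeR). Sdhc, the other membrane anchor, was at 0.18 ± 0.21 (adjusted p = 0.54, edgeR).

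Complex III carries electrons to cytochrome c, and 4 of its 8 subunits were higher and none was lower. Uqcrb, a small subunit near the quinone site, had the largest log2 fold change of the complex at 1.08 ± 0.23 (adjusted p = 0.0016, edgeR). It had 29.2 and 30.2 CPM in 10-day PD-1+ cells and 17.5 and 16.9 CPM in 10-day PD-1- cells; at 5 days it had 50.4 and 45.8 CPM in PD-1+ cells and 15.2 and 22.7 CPM in PD-1- cells. The groups did not overlap, but 57.3% of its 25-base words occur in other genes, and how such reads were counted is not stated. Uqcr10 was higher at 0.84 ± 0.22 (adjusted p = 0.0067, edgeR), and Uqcrc1, a large core protein on the matrix side, at 0.49 ± 0.13 (adjusted p = 0.0084, edgeR). Uqcrfs1, the Rieske iron-sulfur protein, was at 0.40 ± 0.14 (adjusted p = 0.029, edgeR), whereas Uqcrh, the hinge protein that contacts cytochrome c, was at -0.00 ± 0.14 (adjusted p = 0.98, edgeR).

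Complex IV, cytochrome c oxidase, had the highest share of called members among the nuclear classes, with 9 of 12 higher and 1 lower. Cox5a (chr9:57521274-57532426, plus strand), a structural subunit on the matrix side, had 110 and 115 CPM in 10-day PD-1+ cells, against 47.0 and 57.9 CPM in 10-day PD-1- cells. At 5 days it had 245 and 217 CPM in PD-1+ cells, against 97.5 and 109 CPM in PD-1- cells. The groups did not overlap, and the log2 fold change was 1.14 ± 0.14 (adjusted p = 1.2e-05, edgeR). Cox6b1, which joins the monomers of the enzyme, was higher at 1.04 ± 0.16 (adjusted p = 0.00014, edgeR) and Cox5b, a zinc-binding subunit, at 1.04 ± 0.15 (adjusted p = 8.0e-05, edgeR). Cox8a was at 0.81 ± 0.16 (adjusted p = 0.0012, edgeR) and Ndufa4 at 0.74 ± 0.15 (adjusted p = 0.0013, edgeR). Cox4i1, the widespread form of subunit 4, was at 0.35 ± 0.13 (adjusted p = 0.044, edgeR), and this call was lost with upper-quartile scaling (adjusted p = 0.13, edgeR) and without 6 of the 8 libraries in turn. Cox7c was at 0.22 ± 0.23 (adjusted p = 0.48, edgeR) and Cox6a1 at 0.42 ± 0.19 (adjusted p = 0.084, edgeR).

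Cox7a2l (chr17:83501918-83517330, minus strand, GRCm38) is related in sequence to Cox7a2 and is known for joining complexes III and IV into supercomplexes. Supercomplexes were not measured in these C57BL/6 mice. Cox7a2l was the only nuclear complex IV subunit called lower, and 22.9% of its 25-base words occur in other genes. It had 125 and 149 CPM in 10-day PD-1+ cells, against 265 and 284 CPM in 10-day PD-1- cells. In 5-day cells its level was 94.2 and 125 CPM in PD-1+ cells, against 260 and 256 CPM in PD-1- cells. Every PD-1+ library was below every PD-1- library, and the level was 2.17-fold lower in PD-1+ cells (log2 fold change -1.12 ± 0.14, adjusted p = 1.4e-05, edgeR). Cox7a2, the widespread form of subunit 7a, was at 0.66 ± 0.21 (adjusted p = 0.021, edgeR). Of the counts per kb of exon of these paralogs together, Cox7a2 took 45.3 and 33.6% in 10-day PD-1+ cells, against 15.9 and 21.2% in 10-day PD-1- cells. At 5 days it took 65.4 and 55.3% in PD-1+ cells, against 21.4 and 32.4% in PD-1- cells, and this share needs no scaling between libraries. The lowest PD-1+ share was 33.6% and the highest PD-1- share 32.4%, so the groups were separated by little. Forms of complex IV subunits known from muscle, lung or testis were below the count limit, with 10 counts of Cox6a2, 6 of Cox7a1, 2 of Cox8b, 5 of Cox4i2, 11 of Cox6b2 and 0 of Cox7b2 and Cox8c in all libraries together, and Ndufa4l2 had 2. Just inside the limit of 50 counts stood Ndufb4 with 77 and Atp5s with 97.

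Complex V, ATP synthase, had 9 of 16 subunits higher and none lower. Atp5d, the delta subunit of its central stalk, had 371 and 365 CPM in 10-day PD-1+ cells, against 205 and 222 CPM in 10-day PD-1- cells. The 5-day levels were 534 and 472 CPM in PD-1+ cells, against 298 and 295 CPM in PD-1- cells. PD-1+ libraries were higher without overlap, and the log2 fold change was 0.77 ± 0.12 (adjusted p = 0.00012, edgeR). The c subunit of the rotor ring is encoded by 3 nuclear genes, of which Atp5g3 took 88.8 to 94.1% of the counts per kb in PD-1+ and 90.1 to 92.2% in PD-1- libraries. Atp5g3 was higher at 0.84 ± 0.14 (adjusted p = 0.00027, edgeR), while Atp5g1 was at 0.55 ± 0.24 (adjusted p = 0.081, edgeR) and Atp5g2 at 0.49 ± 0.36 (adjusted p = 0.29, edgeR). Atp5f1, a subunit of the peripheral stalk, was higher at 0.68 ± 0.13 (adjusted p = 0.00064, edgeR), and Atp5h, another stalk subunit, was at 0.07 ± 0.18 (adjusted p = 0.79, edgeR). At least 30% of the 25-base words of Atp5f1, Atp5g2, Atp5h, Cox5b and Cox6a1 occur in other genes, so their levels are uncertain in the same way.

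The mitochondrially encoded members all had negative log2 fold changes. mt-Nd4, a membrane-arm subunit of complex I that pumps protons, had 792 and 805 CPM in 10-day PD-1+ cells, against 1383 and 1463 CPM in 10-day PD-1- cells. For 5-day cells the values were 1047 and 1090 CPM in PD-1+ cells, against 1267 and 2007 CPM in PD-1- cells. Every PD-1+ library was below every PD-1- library, and the log2 fold change was -0.72 ± 0.15 (adjusted p = 0.0011, edgeR). The related mt-Nd5 was lower at -0.60 ± 0.14 (adjusted p = 0.0037, edgeR) and mt-Nd2 at -0.59 ± 0.17 (adjusted p = 0.013, edgeR). mt-Cytb, the only complex III subunit of this genome, was lower at -0.57 ± 0.14 (adjusted p = 0.0045, edgeR). mt-Nd6, the only member transcribed from the other strand, was lower at -0.48 ± 0.16 (adjusted p = 0.021, edgeR).

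The remaining mitochondrial members were not called. mt-Co1, the catalytic subunit of complex IV, had 5971 and 6088 CPM in 10-day PD-1+ cells, against 7828 and 8767 CPM in 10-day PD-1- cells. At 5 days it had 9283 and 9401 CPM in PD-1+ cells, against 8410 and 10833.5 CPM in PD-1- cells, so the groups were apart at 10 days and overlapped at 5 days. Over both ages it was at -0.25 ± 0.14 (adjusted p = 0.16, edgeR). mt-Nd1 was at -0.22 ± 0.17 (adjusted p = 0.31, edgeR) and mt-Nd3 at -0.49 ± 0.40 (adjusted p = 0.35, edgeR). PD-1- 5-day replicate 3, a male library, had the highest level of each of the 8 mitochondrial members. Without it, 3 of the 8 were lower in PD-1+ cells, as also without 10-day PD-1+ replicate 2, the summed mitochondrial log2 ratio was -0.18 in place of -0.33, and the ratio of nuclear to mitochondrial counts was 1.69-fold apart in place of 1.76-fold. Per kb of transcript, the mean level over the 8 libraries was 5387 CPM for mt-Co1, 3882 for mt-Nd1, 2153 for mt-Cytb, 894 for mt-Nd4, 815 for mt-Nd5, 417 for mt-Nd2, 236 for mt-Nd6 and 27.5 for mt-Nd3. How reads shared with other genes were counted is not given, which limits this order, as does oligo(dT) priming.

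Each age gave its own comparison, from different libraries. At 10 days 20 members were higher in PD-1+ cells and 7 lower, where 16.4% of all tested genes were higher and 12.9% lower. At 5 days 33 members were higher and 4 lower, where 17.6% of all tested genes were higher and 16.7% lower. At both ages 17 members were higher, among them Ndufb7, Ndufs8, Sdhb, Sdhd, Cox5a, Cox6b1, Atp5d and Atp5g3, and 4 were lower, namely Cox7a2l, mt-Cytb, mt-Nd4 and mt-Nd5. The sign was the same at both ages for 72 of 83 members, and Pearson's r of the log2 fold changes was 0.77 across the members, which share the libraries of each age and are not independent. The shares of all tested genes called at both ages, or with the same sign at both, were not determined. The counts at both ages therefore have no background beside them. No complex III subunit was called at 10 days and 5 of 8 were higher at 5 days, although no complex III subunit passed the test of the difference between ages. The counts depended on single libraries: without 10-day PD-1- replicate 1, 7 members were higher at 10 days, and without either replicate 2 library of 5 days 20 were higher at 5 days.

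**Figure D4:**
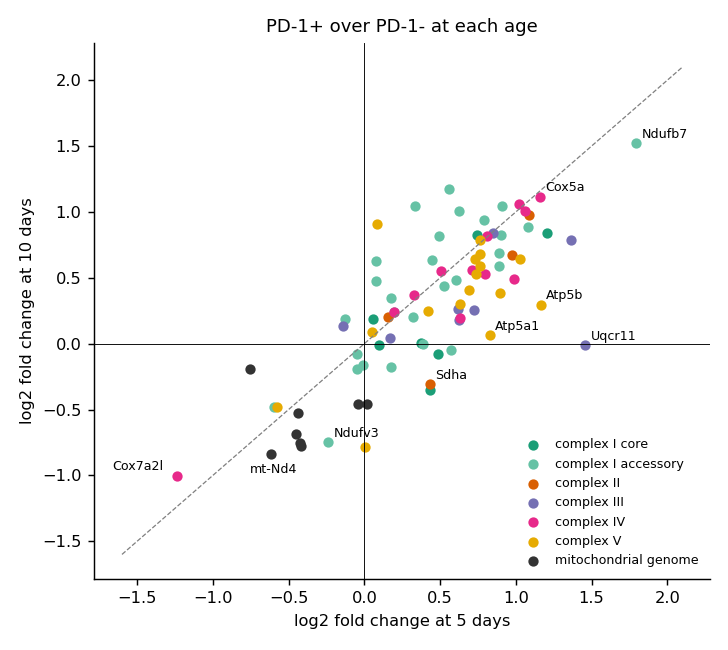
Log2 fold change of PD-1+ over PD-1- cells at 10 days (vertical axis) against that at 5 days (horizontal axis) for the 83 members, coloured by complex, with a dashed line of equality. Most points lie in the upper right corner and Cox7a2l lies at the lower left. Atp5a1 and Atp5b lie to the right of the line, at 0.83 and 1.16 at 5 days. At 10 days Atp5a1 is near 0 and Atp5b is above 0.

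A test of the difference between ages called 2 members, both lower, where 1.2% of all tested genes were higher and 0.923% were lower. They encode the alpha and beta subunits that form the catalytic head of ATP synthase and are the most abundant nuclear members in counts. Atp5b (chr10:128083273-128090391, plus strand) had 1345 and 1361 CPM in 10-day PD-1+ cells, against 1132 and 1070 CPM in 10-day PD-1- cells. In 5-day cells its level was 2817 and 2591 CPM in PD-1+ cells, against 1234 and 1178 CPM in PD-1- cells. The 5-day PD-1+ libraries stood above all others, and the PD-1 effect at 10 days minus that at 5 days was -0.87 ± 0.17 on the log2 scale (adjusted p = 0.014, edgeR). Atp5a1 had 1248 and 1261 CPM in 10-day PD-1+ cells, against 1227 and 1175 CPM in 10-day PD-1- cells. At 5 days Atp5a1 had 2204 and 2254 CPM in PD-1+ cells, against 1296 and 1215 CPM in PD-1- cells, and the difference of effects was -0.77 ± 0.17 (adjusted p = 0.026, edgeR). Neither was called without both 5-day libraries from males, where the adjusted p was 0.087 for Atp5b and 0.21 for Atp5a1 (edgeR), and the differences were -0.92 and -0.73. Atp5b was also not called without 5-day PD-1+ replicate 2 (adjusted p = 0.082, edgeR). Atp5a1 was called in 2 of the 8 fits that leave out 1 library, those without a 10-day library numbered 2, and its adjusted p reached 0.093 in the others (edgeR).

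Between the ages, every called member was lower at 10 than at 5 days. In PD-1+ cells none was higher and 39 were lower at 10 days, where 7.39% of all tested genes were higher and 6.98% lower, and the median of the members was -0.65, against 0.05 over all tested genes. The lower members were 35 nuclear and 4 mitochondrial genes. Of the 39, 28 were also among those higher in PD-1+ cells over both ages, a comparison that shares these libraries. The share of all tested genes with both calls was not determined, so this overlap has no background beside it. Atp5b was lower at 10 days in PD-1+ cells by a log2 fold change of -1.0 ± 0.12 (adjusted p = 5.0e-05, edgeR) and Atp5a1 by -0.83 ± 0.12 (adjusted p = 0.00028, edgeR). Atp5g3 was at -1.02 ± 0.16 (adjusted p = 0.00063, edgeR), Cox5a at -1.04 ± 0.17 (adjusted p = 0.00085, edgeR) and Ndufa4 at -0.97 ± 0.18 (adjusted p = 0.0019, edgeR). By class, 12 of 35 nuclear complex I subunits were lower, 1 of 4 in complex II, 4 of 8 in complex III, 8 of 12 in complex IV and 10 of 16 in complex V.

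In PD-1- cells none was higher and 1 was lower at 10 days, where 0.148% of all tested genes were higher and 0.122% lower. That gene was Cox5a, with 47.0 and 57.9 CPM at 10 days, against 97.5 and 109 CPM at 5 days (log2 fold change -0.99 ± 0.19, adjusted p = 0.028, edgeR). The median of the members was -0.52 and 75 of 83 lay below 0, with 42 at an unadjusted p below 0.05 in edgeR. Over all 11490 tested genes the median was -0.01 and 5848 lay below 0, with 1219 at an unadjusted p below 0.05 in edgeR. The called counts thus differ more between the populations than the medians do, and 2 members alone passed the test of that difference. Sex was mixed at 5 days and all 10-day libraries lacked Y-linked counts. Without the male libraries 30 members were lower in PD-1+ cells and 0 in PD-1- cells (edgeR). Every PD-1+ library bore on the count in PD-1+ cells: 8 members were lower without 5-day replicate 2, 22 without 5-day replicate 3, 15 without 10-day replicate 1 and 19 without 10-day replicate 2. The call of Cox5a in PD-1- cells was absent without either 10-day PD-1- library, either 5-day PD-1+ library or 5-day PD-1- replicate 3. With library totals in place of scaling factors 18 were lower in PD-1+ cells, with a median of all tested genes of 0.24 and of the members of -0.46.

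**Figure D5:**
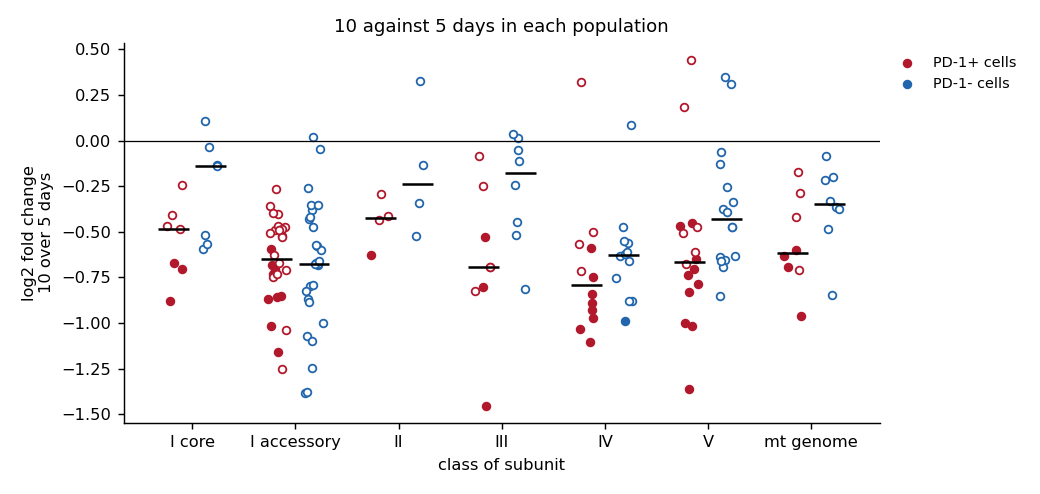
Log2 fold change of 10 over 5 days for each member by class, in PD-1+ cells (red, left of each pair) and PD-1- cells (blue, right), with a black line at the class median. Filled points were called at an adjusted p below 0.05. In both populations most points lie below 0, and filled points are nearly all from PD-1+ cells, with Cox5a the only one from PD-1- cells.

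Genes that build or serve the chain were set beside the members. Of the assembly factors over both ages, 5 of 18 for complex I were higher in PD-1+ cells and 2 lower, 2 of 10 for complexes II and III higher, 5 of 23 for complex IV higher and 1 lower, and 1 of 5 for complex V higher. Cox17, a copper chaperone of complex IV, was at 1.56 ± 0.29 (adjusted p = 0.00057, edgeR). Cox10, which makes heme for the same complex, was at -0.84 ± 0.19 (adjusted p = 0.0025, edgeR). Atpif1, the inhibitor protein of ATP synthase, was at 1.06 ± 0.24 (adjusted p = 0.0024, edgeR).

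Among electron carriers and the enzymes that feed them 5 of 20 were higher and 2 lower, and Cycs, cytochrome c itself, was at 1.68 ± 0.28 (adjusted p = 0.00021, edgeR). Etfb, which delivers electrons from fatty acid oxidation, was at 1.72 ± 0.23 (adjusted p = 3.5e-05, edgeR). Of 7 genes for ATP and phosphate exchange and uncoupling 5 were higher and none lower, with Slc25a4, an ADP/ATP carrier, at 1.01 ± 0.12 (adjusted p = 1.4e-05, edgeR). Of 20 tricarboxylic acid cycle genes 5 were higher and 1 lower. Idh3a, of the NAD-linked isocitrate dehydrogenase, was at 1.21 ± 0.13 (adjusted p = 2.7e-06, edgeR), and Idh2, the NADP-linked enzyme, at -1.80 ± 0.15 (adjusted p = 2.5e-07, edgeR). The shares that were higher, 20 to 27.8% in the assembly lists and 25% in the carrier and cycle lists, lie near the background of 21.9%, and that of the exchange list was 71.4%.

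The genes that copy and transcribe mitochondrial DNA gave 0 higher and 5 lower of 24, with a median log2 fold change of 0.02. The lower ones included Polrmt, the mitochondrial RNA polymerase, at -0.55 ± 0.19 (adjusted p = 0.030, edgeR), Tfb2m, its initiation factor, at -0.95 ± 0.32 (adjusted p = 0.029, edgeR), and Polg2, a subunit of the DNA polymerase, at -0.87 ± 0.16 (adjusted p = 0.00054, edgeR). A share of 20.8% lower lies near the background of 19.6%. Of 76 mitochondrial ribosomal protein genes 31 were higher and 2 lower, and of 82 cytosolic ribosomal protein genes 3 were higher and 53 lower. Their medians were 0.52 and -0.44, against 0.49 for the nuclear members and -0.53 for the mitochondrial ones. Of 9 regulators of nuclear respiratory genes 2 were higher and 1 lower, or 22.2% and 11.1%, near or under the background of 21.9% and 19.6%. The higher ones were Gabpa (0.41 ± 0.15, adjusted p = 0.040, edgeR) and Gabpb1 (0.54 ± 0.15, adjusted p = 0.0078, edgeR), subunits of a factor of the ETS family known to bind promoters of respiratory genes. The lower one was Yy1 (-0.87 ± 0.15, adjusted p = 0.00035, edgeR).

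Promoters were searched for letters of factors known to bind this gene group, in windows of 250 bases before to 50 after each start from RefSeq (GRCm38.p6), which matched 64 of the 75 nuclear members. The palindrome of the factor NRF1, read as GCGCA, any base and GCGC on either strand, occurred in 17 of 64 (26.6%), against 5.19% of 27025 genes with a window. The ETS core CCGGAAG on either strand occurred in 16 of 64 (25%), against 9.93% of the same genes. These background shares cover every gene with a window, whether or not it was tested here. Shares among the tested genes alone were not determined, so an excess particular to the members is not shown. The letters of the motifs differ, so a match to one is no match to the other. Among members higher in PD-1+ cells 9 of 34 held each motif, and among those not called 7 of 27 held each, so the shares in called and uncalled members were alike. Windows of called members are shown, upstream of the RefSeq start and on the gene's strand, with every match to either motif in capitals. For NRF1 they are from Sdhd at chr9:50603889-50603958 and Ndufa11 at chr17:56717672-56717741. For ETS they are from Ndufb7 at chr8:83566708-83566757 and Cox6b1 at chr7:30626115-30626172. GENCODE M21 starts Ndufb7 at chr8:83566671 and Cox6b1 at chr7:30626151. The Ndufb7 window and the Cox6b1 match therefore lie inside the genes as annotated there. Sdhd and Cox6b1 lie on the minus strand, Ndufa11 and Ndufb7 on the plus strand, and the match in Cox6b1 is the reverse complement. The Sdhd window also ends in a reverse complement of the ETS core.
Sdhd: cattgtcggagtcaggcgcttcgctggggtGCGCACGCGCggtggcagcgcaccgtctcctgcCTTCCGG
Ndufa11: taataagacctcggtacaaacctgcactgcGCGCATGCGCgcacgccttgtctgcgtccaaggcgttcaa
Ndufb7: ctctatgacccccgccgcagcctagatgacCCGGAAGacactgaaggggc
Cox6b1: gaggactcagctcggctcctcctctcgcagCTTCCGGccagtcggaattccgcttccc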

How the data were processed

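RNA of 8 libraries was sequenced as paired 25-base reads after oligo(dT) priming, per the labels' protocols. The authors deposited raw counts per gene symbol; the submitters' processing notes name STAR 2.5.4, featureCounts and mm10. The sources used here do not give annotation, strand setting or treatment of multi-mapping reads, so overlapping genes may share counts. All 8 columns matched a sample by title.

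edgeR 4.0.16 (R 4.3.3) was run on all genes: filterByExpr kept 11490, with TMM scaling and robust quasi-likelihood tests. PD-1 effects over both ages came from a model with age and PD-1 as separate terms, and all other comparisons from 1 coefficient per group. Benjamini-Hochberg adjustment covered every tested gene, with calls below 0.05. A ± after a log2 fold change is its standard error, from the square root of F. CPM were computed from the scaled sums over tested genes. Replicates of a group differed beyond counting error (chi-square per degree of freedom 4.00 to 8.61). The procedure was tested on simulated data.

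Members and lists were chosen with earlier results of these data known. Named genes were the mitochondrial members, isoform families, the 3 smallest and the largest p of each nuclear class, members called against the majority, up to 5 per age comparison and up to 4 per other list; not all are printed. Uqcrfs1 and the genes whose promoters are shown were chosen after their values were seen. Replicate numbers were not taken as pairs.

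Annotation was GENCODE M21 (GRCm38), which held 49365 of 52997 symbols. Alternatives were RLE, upper-quartile and no scaling factors, DESeq2 1.42.0, no low-count filter, mitochondrial rows left out, a replicate block, and omission of libraries. Ratios and sums over genomes were added after seeing the data.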

Additional observations from a re-analysis of the deposited data

Results flagged for a closer look

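The PD-1 effect on Atp5b, the beta subunit of ATP synthase, differed between the ages: the effect at 10 days minus that at 5 days was -0.87 on the log2 scale (edgeR, adjusted p = 0.014), from effects of 0.30 at 10 days and 1.16 at 5 days. Atp5a1, the alpha subunit, differed in the same direction by -0.77 (edgeR, adjusted p = 0.026), from effects of 0.06 at 10 days and 0.83 at 5 days. In both genes both 5-day PD-1+ libraries were higher than every other library.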

How the results depend on the processing

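Over both ages, 26 to 39 members were higher in PD-1+ cells under every scaling, tool, filter and omission run, and the ratio of nuclear to mitochondrial counts stayed 1.69- to 1.87-fold higher. The log2 ratio of the summed nuclear level was 0.42 with upper-quartile scaling, 0.33 with library totals and 0.39 to 0.62 with single libraries left out, and that of the mitochondrial level was -0.43 to -0.18 with single libraries left out. Counts of lower members were less stable. Over both ages 3 were lower with mitochondrial rows left out, where those 8 genes are not tested, 5 without both 5-day libraries numbered 3, and 4 to 9 without single libraries. Of nuclear members 1 was lower with DESeq2, 1 with the replicate block and 1 to 2 without single libraries, and of mitochondrial members 3 were lower without both 5-day libraries numbered 3 and 3 to 7 without single libraries. At 10 days 2 were lower with mitochondrial rows left out, 5 to 9 were lower and 7 to 22 higher without single libraries. At 5 days 7 were lower with library totals, 2 with DESeq2, 1 with mitochondrial rows left out, 1 without the libraries numbered 3 and 1 to 7 without single libraries, and 20 to 38 were higher without single libraries. Between ages in PD-1+ cells 18 were lower with library totals and 8 to 43 without single libraries. In PD-1- cells 5 were lower with DESeq2, 8 with no filter, 0 without the libraries numbered 3 and 0 to 5 without single libraries. For the difference of effects 1 was lower with library totals, 0 without the libraries numbered 3 and 0 to 3 without single libraries. The causes were not tested.

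Library totals moved the share of higher calls among all genes to 35.4% in place of 51.3% at 5 days, to 75.6% in place of 51.4% between ages in PD-1+ cells, and to 78.9% in place of 56.6% for the difference of effects, where the median of the members was 0.01 in place of -0.13. DESeq2 gave 35% in place of 54.8% between ages in PD-1- cells.

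Some uncalled genes near 0 changed sign. Atp5h was at -0.018 with upper-quartile scaling, -0.089 with library totals and -0.020 to 0.18 without single libraries. Ndufb2 was at 0.0053 with RLE, 0.013 with DESeq2, 0.031 with no filter, 0.18 without the libraries numbered 3 and -0.26 to 0.19 without single libraries. Ndufs1 was at -0.043 with upper-quartile scaling, -0.11 with library totals, -0.11 without the libraries numbered 3 and -0.088 to 0.18 without single libraries. Sdha was at -0.023 with upper-quartile scaling, -0.093 with library totals, -0.085 without the libraries numbered 3 and -0.041 to 0.21 without single libraries. Uqcrh was at 0.0026 with RLE, 0.0096 with DESeq2, 0.031 with no filter, 0.0039 with the replicate block, 0.17 without the libraries numbered 3 and -0.069 to 0.12 without single libraries.

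Deviations of same-numbered libraries from their group means correlated at 0.114 at 10 days and 0.0938 at 5 days, not above 0.1 at both ages. With 2 libraries a group, both pairs of an age must give the same value. These correlations therefore cannot decide whether the numbers mark animals. The labels do not tie the numbers to animals, so same-numbered libraries were not taken as pairs. Same-numbered libraries did share sex, which at 5 days separates number 2 from number 3. With the replicate block 34 members were higher and 6 lower over both ages, 21 and 9 at 10 days, 35 and 4 at 5 days, and 3 were lower for the difference of effects. Over both ages the block ended the calls of Ndufa6 (adjusted p = 0.054, edgeR), Ndufv3 (adjusted p = 0.053, edgeR) and Cox4i1 (adjusted p = 0.074, edgeR). With 2 libraries a group, omission of 1 leaves a lone library that is assumed to vary like the other groups. Genes with few counts, such as mt-Nd3 with 170 and Ndufb4 with 77 in all libraries, could show only large differences.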
